A study of Mus musculus with 8 samples.

Results

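The genes described here encode the amyloid precursor protein family, enzymes that cut it, tau and members of the synuclein family: App, Aplp1, Aplp2, Bace1, Bace2, Psen2, Mapt, Sncb and Sncg. They were chosen by gene symbol, because their products are substrates of insulin-degrading enzyme or are linked to it, and 9 of 9 symbols had a row, 1 row each, among the 19494 named genes and 22142 rows tested. Expression was measured on Clariom S arrays, which read most named genes as a single probe set, in alphaTC1.9 cells, a clonal mouse pancreatic alpha cell line of tumour origin. There were 4 arrays of IDE-KD cells, made by RNA interference (siRNA) against insulin-degrading enzyme, and 4 arrays of control cells. Both groups grew in 16 mM glucose with no other treatment stated. The labels call the replicates of each group biological, without saying whether they were separate cultures, so p-values measure only how these samples vary, in which technical variation may have a part. They give neither the kind of control nor the time since the knockdown.

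Insulin-degrading enzyme is a zinc metalloprotease that cuts insulin, and it also degrades the amyloid beta peptide in the brain. Amyloid beta is released from the amyloid precursor protein when beta-secretase (Bace1) cuts first and gamma-secretase, whose catalytic subunit is a presenilin such as Psen2, cuts second. A cut by alpha-secretase inside the amyloid beta segment prevents its formation. Synucleins are small proteins of nerve terminals and other secretory cells. Tau, encoded by Mapt, binds and stabilises microtubules. All values below are RNA levels and say nothing of protein or peptide amounts.

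None of the 9 genes passed the test for a change in IDE-KD cells. Their fitted log2 differences, IDE-KD minus control, lay between -0.15 for Sncb and 0.18 for Sncg, with 5 genes higher and 4 lower and a median of 0.01, against a median of 0.0074 over all tested rows. In limma, 0 of 9 passed an adjusted p under 0.05 (adjusted p = 1.00 for each), 0 of 9 had an unadjusted p under 0.05, and the arrays of the groups overlapped at all 9. Over all 22142 rows, limma called 0 higher and 0 lower, so the background share called was 0%, while 4.59% of rows had an unadjusted p under 0.05 and 2.80% kept the groups apart. The 95% confidence intervals of all 9 genes lay within a 1.5-fold change in either direction, as did those of 83.6% of rows. For Sncg this bound was narrowly met, and its upper limit passed 1.5-fold, reaching a log2 value of 0.66 to 0.70, without IDE-KD replicate 2 or 4 or without control replicate 1, 3 or 4, and 0.59 with trended and robust variances. The median size of the difference, regardless of sign, was 0.04 for the 9 genes and 0.10 over all rows. On the arrays the 9 genes averaged 7.38 to 7.61, against medians of 5.10 to 5.17 over all rows. Sizes of differences at a like level were not compared.

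The targeted gene, Ide (probe set TC1900001454.mm.2), was lower in IDE-KD cells. It read 7.91, 8.14, 7.92 and 8.05 on the IDE-KD arrays and 8.66, 8.62, 8.72 and 8.48 on the control arrays, with no overlap. The log2 difference was -0.62 (SE 0.12), a 1.53-fold lower level. The exact permutation p (two-sided) was 0.0286, the smallest that 4 against 4 arrays allow. The unadjusted limma p of Ide was 0.00016, at rank 3 of the 22142 rows, but Ide did not pass over all rows in limma (adjusted p = 1.00). A fall as large as that of Ide lay outside the 95% confidence intervals of all 9 genes.

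**Figure D1:**
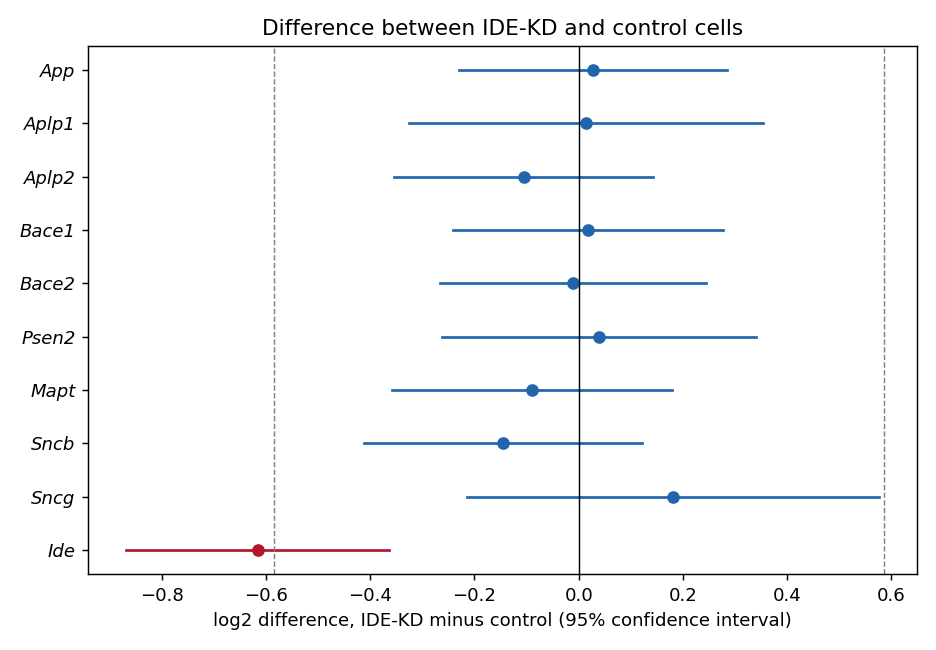
Log2 difference between IDE-KD and control cells (horizontal axis) for the 9 genes and, in red in the bottom row, Ide. Points are limma estimates over 4 IDE-KD and 4 control arrays, lines are 95% confidence intervals, and the dashed lines mark 1.5-fold changes. The 9 intervals include 0 and stay inside the dashed lines, while that of Ide runs from -0.87 to -0.36.

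Medians over the tested rows were 5.11 to 5.17 on the IDE-KD arrays and 5.10 to 5.14 on the control arrays. As a guide to background, 5222 rows named as negative controls had a median of 4.16 and a 95th percentile of 6.87. The median of all array control rows, positive controls among them, was 4.52. Averaged over the 8 arrays, App, Aplp1, Aplp2, Bace2 and Sncb lay above that percentile, Bace1, Psen2 and Mapt lay between 4.52 and that percentile, and Sncg, at 4.46, lay below 4.52. Of 12 alpha cell markers listed, 7 had a named row, of which 7 were above 4.52 and 5 above the percentile, with Gcg, the glucagon gene, at 12.06 and Irx1 and Ttr below the percentile at 6.37 and 5.97. Among 9 neuronal markers, 7 were above 4.52 and 5 above the percentile, among them Syp, a secretory vesicle protein gene also used in endocrine cells, at 11.59, whereas Rbfox3 and Slc17a7, which mark mature neurons, were below 4.52 at 3.40 and 3.84. Markers of other cells above 4.52 were 2 of 6 for beta cells (Ins2 at 4.74 and Nkx6-1 at 6.64), 1 of 3 for delta and PP cells (Sst at 5.56), 2 of 5 for fibroblasts (Col1a1 at 5.87 and Col1a2 at 4.60), 1 of 4 for exocrine cells (Cela2a at 4.69), 0 of 2 for immune and 0 of 3 for endothelial cells. None of these was above the percentile.

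Within the precursor family, App encodes the membrane protein from which amyloid beta is cut. It read 10.26, 10.00, 9.90 and 10.09 on the IDE-KD arrays and 10.02, 10.12, 10.03 and 9.96 on the control arrays. The control values fell inside the range of the IDE-KD values, whose highest and lowest arrays were replicates 1 and 3. The means were 10.06 ± 0.15 in IDE-KD and 10.04 ± 0.07 in control cells (SD, n = 4 each), and the fitted difference of 0.03 on the log2 scale (SE 0.12, 95% confidence interval -0.23 to 0.29) turned to -0.04 without IDE-KD replicate 1. The platform table lists 5 RefSeq transcripts for this probe set (TC1600001966.mm.2), so splice forms of App, like those of Mapt with 5 listed transcripts, were not told apart.

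Aplp1, an App relative found mainly in neurons and endocrine cells and lacking the amyloid beta segment, varied more between arrays of a group than between the groups. Its values were 8.29, 8.72, 8.15 and 8.58 in IDE-KD cells and 8.24, 8.70, 8.25 and 8.49 in control cells. In both groups replicates 2 and 4 were the higher pair and replicates 1 and 3 the lower, with a span of 0.57 among IDE-KD and 0.46 among control arrays. The group means were 8.44 ± 0.26 and 8.42 ± 0.22 in IDE-KD and control cells (SD, n = 4 each), and the log2 difference was 0.01 (SE 0.16, 95% confidence interval -0.33 to 0.35). Its sign turned when any 1 of 4 arrays was left out, IDE-KD replicate 2 or 4 or control replicate 1 or 3. A like split ran over all tested rows. Deviations from the group mean correlated between the groups at 0.025 to 0.21 where both replicate numbers were odd or both even. Where 1 was odd and 1 even, they correlated at -0.23 to -0.048. The labels do not say what arrays of the same number share.

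Aplp2, the widely expressed family member, read 9.70, 9.42, 9.54 and 9.49 in IDE-KD cells and 9.70, 9.56, 9.64 and 9.68 in control cells. Replicate 1 of IDE-KD matched the highest control array to 2 decimals, and IDE-KD replicates 2, 3 and 4 lay below all control arrays. The means of 9.54 ± 0.12 and 9.65 ± 0.06 in IDE-KD and control cells (SD, n = 4 each) gave a difference of -0.11 on the log2 scale (SE 0.11, 95% confidence interval -0.35 to 0.14), and the exact permutation p (two-sided) was 0.2. It was -0.07 without IDE-KD replicate 2 and -0.16 without IDE-KD replicate 1.

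The secretase genes had group means within 0.04 of each other on the log2 scale. Bace1, the beta-secretase that starts amyloid beta formation, read 6.91, 6.70, 6.56 and 6.85 on IDE-KD arrays and 6.68, 6.71, 6.73 and 6.82 on control arrays. As for App, IDE-KD replicates 1 and 3 were the highest and lowest of the 8 arrays. Its log2 difference was 0.02 (SE 0.12, 95% confidence interval -0.24 to 0.28), and it turned to -0.03 without IDE-KD replicate 1 and to -0.01 without IDE-KD replicate 4.

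Bace2, a close relative of Bace1 that is known to cut within the amyloid beta segment and to shed membrane proteins in beta cells, read 8.53, 8.77, 8.54 and 8.72 in IDE-KD cells and 8.61, 8.81, 8.62 and 8.57 in control cells. Replicate 2 was the highest array of each group. The log2 difference was -0.01 (SE 0.12, 95% confidence interval -0.27 to 0.25). Psen2, a presenilin located mainly in late endosomes and lysosomes, read 5.74, 5.61, 5.41 and 5.86 in IDE-KD cells and 5.48, 5.71, 5.83 and 5.44 in control cells. Both groups spread over nearly the same range, and the log2 difference of 0.04 (SE 0.14, 95% confidence interval -0.26 to 0.34) turned negative without IDE-KD replicate 4 (-0.03), control replicate 1 (-0.0074) or control replicate 4 (-0.02).

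Mapt, the tau gene, read 6.94, 6.57, 6.84 and 6.74 on IDE-KD arrays and 6.85, 6.71, 6.92 and 6.97 on control arrays. Replicate 2 was the lowest array in each group. The means were 6.77 ± 0.16 and 6.86 ± 0.11 in IDE-KD and control cells (SD, n = 4 each), and the log2 difference was -0.09 (SE 0.12, 95% confidence interval -0.36 to 0.18), and the exact permutation p (two-sided) was 0.429. It was -0.02 without IDE-KD replicate 2 and -0.15 without IDE-KD replicate 1.

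Sncb, the beta-synuclein gene, had the smallest p of the 9 genes. It read 7.21, 6.91, 6.77 and 6.88 in IDE-KD cells and 7.11, 7.06, 7.06 and 7.12 in control cells. The 4 control arrays lay within 0.07 of each other, whereas IDE-KD replicate 1 was above all of them and replicates 2, 3 and 4 below all of them. The means were 6.94 ± 0.19 in IDE-KD and 7.09 ± 0.03 in control cells (SD, n = 4 each), a difference of -0.15 on the log2 scale (SE 0.12, 95% confidence interval -0.41 to 0.12), with an unadjusted limma p of 0.257 and an exact two-sided permutation p of 0.143. Without IDE-KD replicate 1 the difference was -0.23 and the unadjusted limma p 0.072, and without IDE-KD replicate 3 the difference was -0.09. That p of 0.072 was the smallest of any of the 9 genes under any alternative. The unadjusted limma p of Sncb ran up to 0.503.

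Sncg, the gamma-synuclein gene, known from peripheral neurons and fat cells, had the widest span over the arrays of the 9 genes. It read 4.92, 4.42, 4.66 and 4.19 in IDE-KD cells and 4.60, 3.93, 4.50 and 4.45 in control cells. A span of 0.99 across the 8 arrays compares with a fitted difference of 0.18 (SE 0.18, 95% confidence interval -0.21 to 0.58). Without control replicate 2, its lowest array, the difference was 0.03, and without IDE-KD replicate 4 it was 0.30. With 56.9% of negative control rows below its mean, signal near background limits what its values can show.

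**Figure D2:**
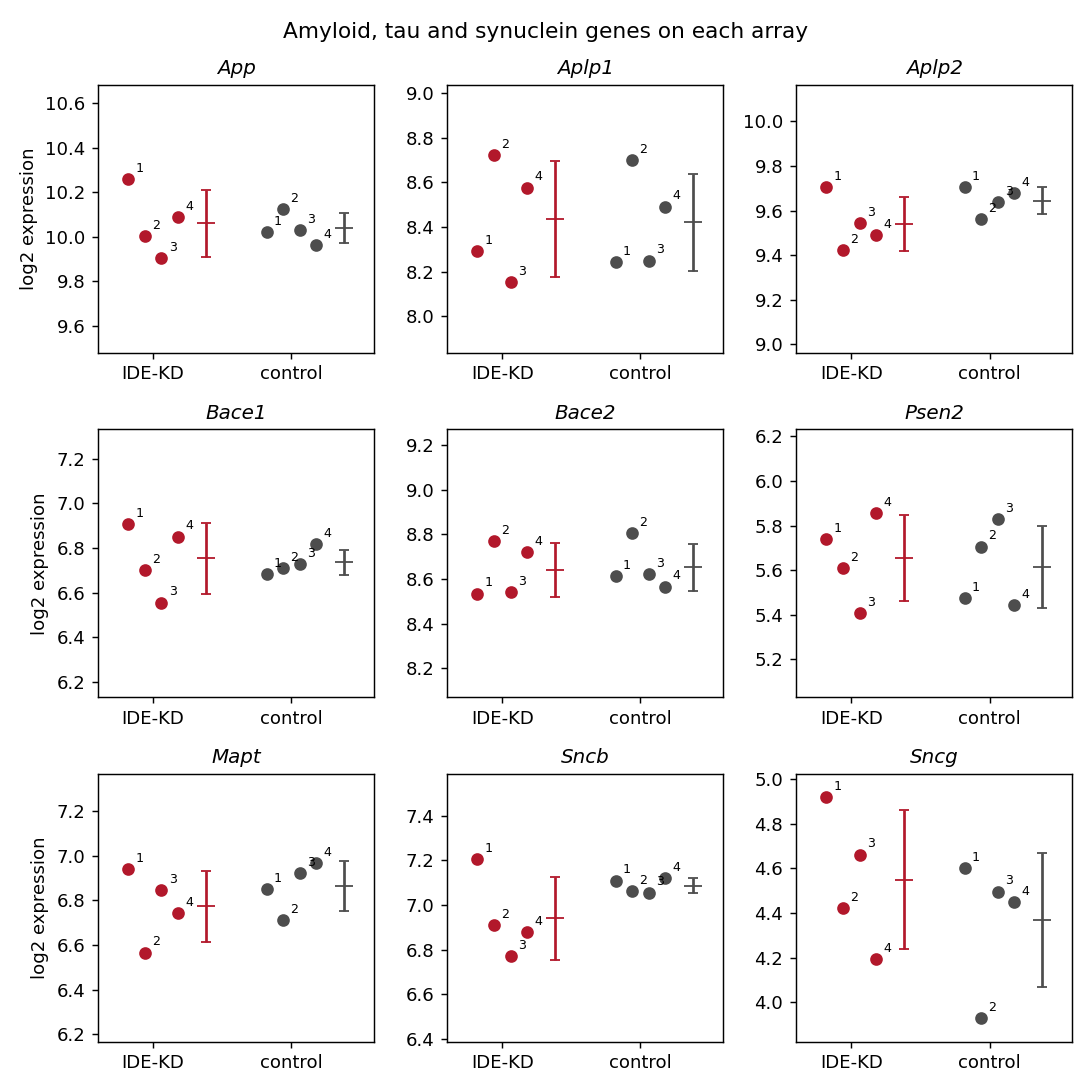
Log2 expression (vertical axis, a span of the same size in each panel) of the 9 genes on each array, IDE-KD left and control right. Numbered points are arrays by replicate number, and bars show the mean and SD of 4 arrays. The groups overlap in all panels, and Aplp1 has replicates 2 and 4 above 1 and 3 in both groups.

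Across the 9 genes, single arrays differed more than the groups did. IDE-KD replicate 1 was the highest of the 8 arrays for App, Aplp2, Bace1, Sncb and Sncg, 5 of 9, where it was the highest at 15.0% of all tested rows; its Aplp2 value equalled that of control replicate 1 to 2 decimals. IDE-KD replicate 3 was the lowest for App, Aplp1, Bace1, Psen2 and Sncb, 5 of 9, against 16.4% of all rows. The mean of the 9 genes was 7.61, 7.46, 7.38 and 7.49 on IDE-KD replicates 1 to 4 and 7.48, 7.48, 7.51 and 7.50 on control replicates 1 to 4. Over all tested rows, the SD of values on an array was 2.156 and 2.13 for IDE-KD replicates 1 and 3 and at least 2.196 on each of the others. The part of this narrower spread in the values of these genes was not tested. The SD was larger among IDE-KD than among control arrays for 9 of 9 genes, with a ratio from 1.04 for Sncg to 5.63 for Sncb and a median of 1.42, while over all rows it was larger at 61.8%, with a median ratio of 1.21. These comparisons of single arrays were chosen after the values were seen and carry no test.

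**Figure D3:**
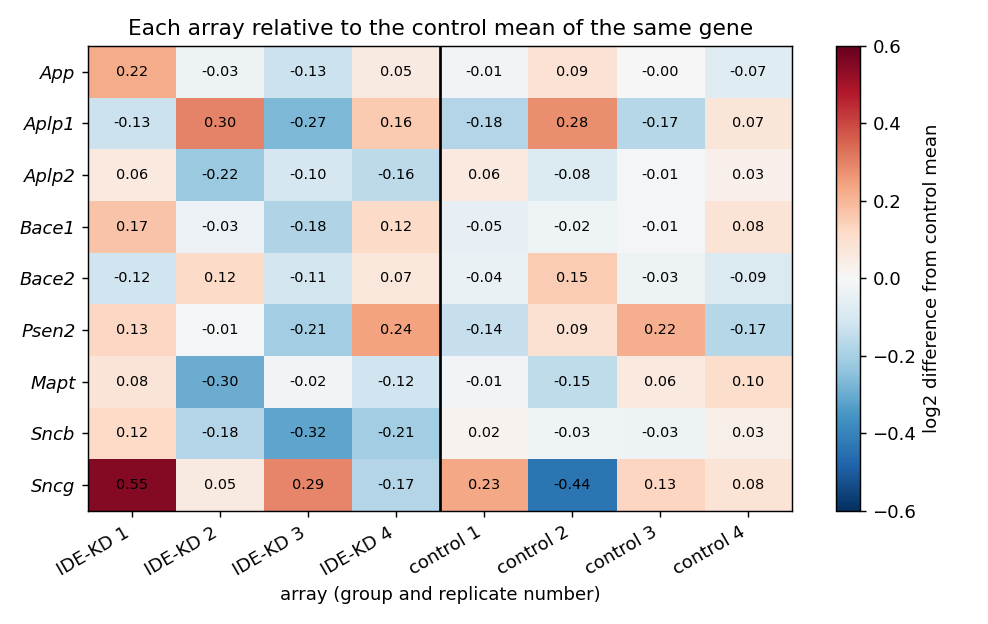
Log2 value of each array minus the control mean of the same gene, for the 9 genes (rows) on 4 IDE-KD arrays, left of the line, and 4 control arrays, right of it. Red is above and blue below the control mean; IDE-KD replicate 1 is red for 7 genes, while the replicates of a group often differ in sign.

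Over the 8 arrays, the pairs among the 9 genes with the highest Pearson correlation were Aplp2 and Mapt (0.87) and Aplp1 and Bace2 (0.85), and those with the lowest were Bace2 and Mapt (-0.85) and Bace2 and Sncg (-0.84). All arrays enter every pair, so effects of an array are shared by both genes. The part in these correlations of the split between odd and even replicate numbers, seen over all tested rows, was not tested. The most similar gene was sought among 11017 other named genes at or above the median array control row. Predicted and clone genes, microRNA genes and olfactory or vomeronasal receptor genes were left out of this search. The gene most like App was Dgkz, a diacylglycerol kinase gene, with a Pearson correlation of 0.97 over 8 arrays. It was 0.87 without the 2 arrays farthest from the median of App. For Aplp1 it was Ifi30, a lysosomal thiol reductase gene (0.99, and 0.98 without 2 arrays), and for Aplp2 the adaptor gene Crk (0.98 and 0.96). The closest to Bace1 was Pknox1 (0.97 and 0.94), to Bace2 Gstm5 (0.98 and 0.98), to Psen2 the alpha-tubulin gene Tuba1b (0.97 and 0.94) and to Mapt Gfod1 (0.96 and 0.86). For Sncb it was Dab2, an endocytic adaptor gene (0.98 and 0.96), and for Sncg the neurogranin gene Nrgn (0.98 and 0.94). Each is the highest of 11017 values over 8 arrays and is given as a description.

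The genes that work around these 9 were taken from 8 lists with 69 entries, of which 67 had a named row; Apba3 and Ece2 were not analysed here. In limma 0 of the 67 passed an adjusted p under 0.05. An unadjusted p under 0.05 was found at 4, or 5.97%, near the 4.59% of all rows, and the groups did not overlap at 2, or 2.99%, near the 2.80% of all rows. The 2 genes without overlap were Itm2a and Plk2. The list medians given below are small, and leaving out 1 array, another scaling or leaving out dim rows turned the sign of 5 of the 8, while those of the other peptidases, the microtubule-associated proteins and the tau kinases kept it.

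On the side of precursor cleavage, 2 of 3 alpha-secretase genes were higher and 1 lower without passing the test, with a median of 0.06. Adam17, a sheddase gene, differed by 0.12 (SE 0.12) and Adam9 by -0.07 (SE 0.12, and -0.02 without IDE-KD replicate 3). Of 5 partner subunits of the presenilins, 3 were higher and 2 were lower, at a median of 0.02. Psenen, which encodes the small subunit that activates the presenilin, read 8.28, 9.20, 8.73 and 9.05 in IDE-KD cells and 8.57, 8.80, 8.46 and 8.33 in control cells. Its difference of 0.28 (SE 0.19) was within a spread of 0.93 among the IDE-KD arrays, and it was 0.45 without IDE-KD replicate 1 and 0.15 without IDE-KD replicate 2. Aph1c, another subunit gene, differed by -0.09 (SE 0.13), and by -0.02 without control replicate 2.

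Adaptors and sorting receptors that carry the precursor through the cell had 6 of 15 higher and 9 lower, with a median of -0.02. Lrp1, an endocytic receptor that binds the precursor and takes up amyloid beta, read 7.32, 7.03, 6.96 and 7.13 in IDE-KD cells and 7.53, 7.53, 7.25 and 7.35 in control cells. All 4 IDE-KD arrays were below the control mean, though the highest of them overlapped the control arrays, and the difference was -0.31 (SE 0.13). Mapk8ip1, the gene of a scaffold that links the precursor to kinesin, read 8.33, 7.83, 7.98 and 8.12 in IDE-KD cells and 8.26, 8.38, 8.35 and 8.42 in control cells. Its difference was -0.28 (SE 0.13), and neither gene passed over all rows in limma (adjusted p = 1.00 each). Both genes were named for having the smallest limma p of the 15, so no further test of them is given.

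The BRI family, membrane proteins that bind the precursor or yield small peptides of their own, had 2 of 3 higher and 1 lower, with a median of 0.08. Itm2a kept the groups apart by a small step, with IDE-KD arrays from 3.62 to 3.83 and control arrays from 3.31 to 3.62, and a difference of 0.17 (SE 0.12) at levels below the median of all array control rows. It was 0.10 without control replicate 4. Itm2c differed by -0.10 (SE 0.14), by -0.18 without IDE-KD replicate 1 and by -0.02 without control replicate 2. The list median turned to -0.0092 with dim rows left out and to -0.03 without IDE-KD replicate 2. Other peptidases that cut amyloid beta had 1 of 6 higher and 5 lower, with a median of -0.09. Nln, the neurolysin gene, differed by 0.17 (SE 0.12), and Mme, the neprilysin gene, by -0.25 (SE 0.21) at a mean level of 4.39, below the same median. The Mme difference was -0.03 without IDE-KD replicate 3.

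Around tau, 4 of 8 genes of structural microtubule-associated proteins were higher and 4 were lower, at a median of -0.02, which was -0.08 without control replicate 1 and -0.07 with dim rows left out. Map4, the widely expressed one, read 8.27, 7.91, 7.78 and 8.24 in IDE-KD cells and 8.27, 8.27, 8.29 and 8.52 in control cells, a difference of -0.29 (SE 0.14). Map6, the gene of a protein that protects microtubules from cold, differed by -0.14 (SE 0.11). Of 15 tau kinase genes and activators, 5 were higher and 10 were lower, at a median of -0.07. The tau tubulin kinase genes Ttbk2 and Ttbk1 differed by -0.23 (SE 0.13) and -0.17 (SE 0.15). Ttbk2 read -0.12 without IDE-KD replicate 3, and Ttbk1 -0.07 without control replicate 2 and -0.25 without IDE-KD replicate 1.

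Synuclein partners and modifiers had 5 of 12 higher and 7 lower, with a median of -0.0068. Plk3, a polo-like kinase gene, differed by -0.50 (SE 0.18), and by -0.32 without IDE-KD replicate 3, with IDE-KD arrays between 5.45 and 6.36 and control arrays between 6.33 and 6.65, which overlapped. Plk2, whose product phosphorylates synucleins and which was singled out after its values were seen, went the other way, at 8.97, 8.81, 8.81 and 9.08 in IDE-KD cells and 8.68, 8.49, 8.76 and 8.78 in control cells. Its difference was 0.24 (SE 0.12), given without a test of its own because the lack of overlap is what singled it out. Siah2, a ubiquitin ligase gene, differed by 0.35 (SE 0.16), and by 0.22 without IDE-KD replicate 2. None of these 3 passed over all rows in limma (adjusted p = 1.00 each).

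**Figure D4:**
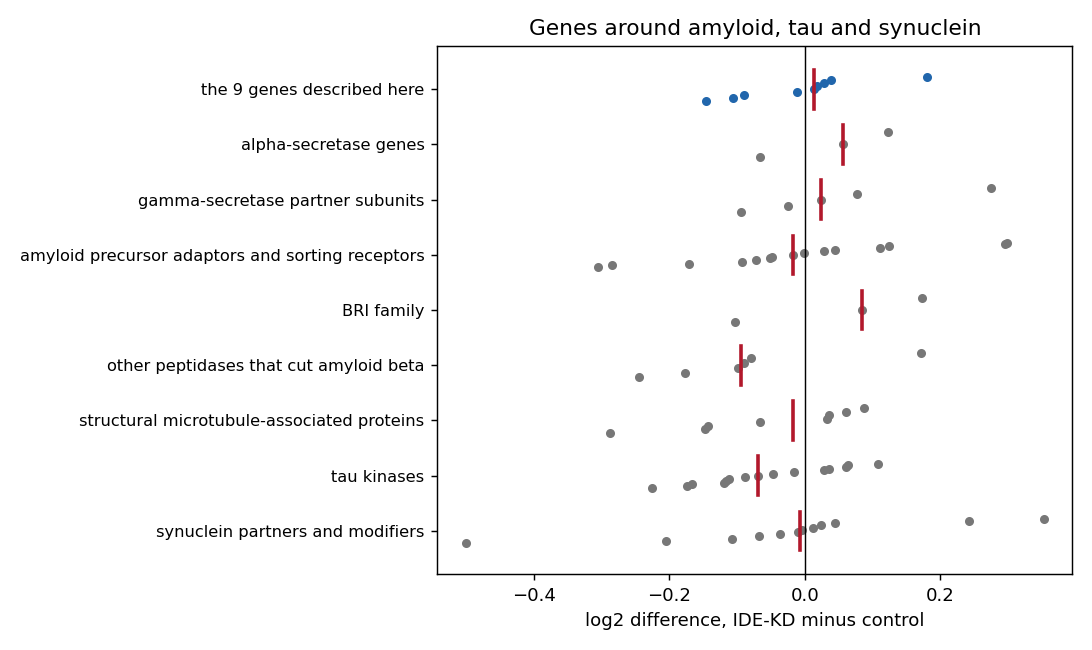
Log2 difference between IDE-KD and control cells (horizontal axis) of each gene, 1 point a gene, for the 9 genes (blue) and 8 lists of genes around them (grey), with red bars at list medians. List medians lie between -0.09 and 0.08, and no point is past the threshold in limma.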

How the data were processed

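The authors deposited log2 expression values, 1 column per array. RMA, oligo and limma are named in the submitters' processing notes, with neither versions nor roles. RMA in its usual form equalises the arrays' distributions, which would remove a global change in RNA amount, and compresses low signals. The values were used as deposited, without further scaling. Of 29129 rows, 22142 transcript clusters were tested, and 6923 array control rows and 64 unplaced rows were left out. By the platform table, 19527 tested rows had 1 symbol, 0 had several and 2615 had none. The sources used here name no genome build, so no coordinates are printed.

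IDE-KD minus control was fitted over all 8 arrays with no covariate, using lmFit and eBayes of limma 3.58.1 under R 4.3.3. The p-values were adjusted by Benjamini-Hochberg over 22142 rows, with a threshold of 0.05. Single values were also compared by exact two-sided permutation (scipy 1.17.1). The fit was tested on simulated data, drawn independently and with the same variance in both groups. That test does not cover effects shared by arrays or an unequal spread of the groups. Precision is limited by the number of arrays, with a median SE of a difference of 0.15. The 9 genes and all lists were chosen with earlier results of these data known. Named were the 9 genes, Ide, the 2 members of each list with the smallest p, and for each of the 9 the most correlated gene; Plk2 was added after its values were seen. A gene with several rows was represented by the brightest.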

Additional observations from a re-analysis of the deposited data

Results flagged for a closer look

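The screen covered the 9 genes, Ide and the 2 members of each list with the smallest p, 52 groups of 4 arrays. Chance leaves the gap between an array and its nearest other above 0.829 of the group's range in about 1 in 20 groups. Such an array was found in 4 of 52 groups, or 7.69%. None was a group of the 9 amyloid, tau and synuclein genes or of Ide. Itm2a was 3.31 on control replicate 4, against 3.57 to 3.62 on the other control arrays, and its difference without that array was 0.10. Map4 was 8.52 on control replicate 4, against 8.27 to 8.29, with a difference of -0.23 without it. Ttbk1 was 7.56 on control replicate 2, against 7.15 to 7.17, with a difference of -0.07 without it. Siah2 was 6.34 on IDE-KD replicate 2, against 5.78 to 5.85 on the other IDE-KD arrays, with a difference of 0.22 without it.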

How the results depend on the processing

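Counts of called rows were 0 higher and 0 lower under all 15 alternatives (replicate block, each array left out, array medians subtracted, quantile normalization again, cyclic loess, array weights, eBayes with trend and robust, dim rows left out), and Ide and the 9 genes stayed short of the threshold. Ide ranged from -0.66 to -0.58 with 1 array left out. Its smallest adjusted p in limma was 0.15, with trended and robust variances. With the replicate number as a block the differences are the same by construction (Ide -0.62, Sncb -0.15) and no call changed. Same-numbered arrays deviated together with correlations of 0.088 to 0.13, not all over 0.1, so the numbers were not taken to pair the samples. Between the groups, deviations correlated at 0.025 to 0.21 where both replicate numbers were odd or both even. They correlated at -0.23 to -0.048 where 1 was odd and 1 even. What odd-numbered or even-numbered arrays share was not tested. With the block, the SE fell for Aplp1 (0.16 to 0.12) and Sncg (0.18 to 0.15), hardly moved for Mapt and rose for the others of the 9. Aplp2, Mapt, Sncb and Sncg kept their direction under every alternative run for them; Sncg had no value with dim rows left out. Leaving out 1 array gave -0.16 to -0.067 for Aplp2, -0.15 to -0.021 for Mapt, -0.23 to -0.089 for Sncb and 0.034 to 0.30 for Sncg. Bace2 reversed to 0.0039 after quantile normalization again, 0.016 after cyclic loess and 0.0067 with array weights. Leaving out 1 array gave -0.036 to 0.081 for App, -0.081 to 0.11 for Aplp1, -0.033 to 0.085 for Bace1, -0.053 to 0.040 for Bace2 and -0.029 to 0.12 for Psen2. The causes were not tested. Signal near background limits Sncg. The other 8 intervals stayed within 1.5-fold under every alternative.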
